A study of Drosophila melanogaster with 4 samples.

Results

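The gene Trl (Trithorax-like) encodes GAGA factor (GAF), the protein whose binding was mapped here, so its own locus shows where the factor sits around its own gene. Embryos of Drosophila melanogaster, of the wild-type strain Oregon-R and 14 to 16 hours into development, were assayed by ChIP-seq, in which chromatin bound by the factor is precipitated with an antibody and its DNA sequenced. There were 2 GAF ChIP replicates and 2 inputs, that is, chromatin sequenced without immunoprecipitation, all of the same strain, genotype and stage. Nothing in the labels tells whether the ChIP replicates are separate collections of embryos, and their spread could be technical. Whole embryos were used, so binding in all cells or in a part of them cannot be told apart.

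The locus was taken as the stretch of 3L from 14700000 to 14810000 on FlyBase release 5, which is 110 kb long. Members were selected on position and on the deposited score: the enriched regions, called clusters below, that overlapped this stretch and scored above 0. There were 6 such clusters among the 5694 of replicate 1, 6 among the 5709 of replicate 2, and 7 among the 6474 that the authors list for the replicate set as a whole. The cluster with the most overlap with the interval taken for Trl, about 14747000 to 14765000, is called the Trl cluster. It was the only cluster on that interval in each of the 3 lists.

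The interval is approximate and could not be checked against a release 5 annotation. The gene table at hand is of release 6, whose coordinates differ, and no conversion was made. That table puts Trl close to the same numbers, so the interval may itself be on release 6, while the clusters are on release 5. The same cluster would have been picked in all 3 lists with the interval moved by up to 16.1 kb toward lower coordinates or up to 5.30 kb toward higher ones. Whether the cluster lies on the start, an exon or an intron of Trl was therefore not determined. By gene order alone, the release 6 table puts the protein-coding genes Tsen34, Mgat4a, Mgat4b, mop and bmm next after Trl toward higher coordinates, and CG42507 just before it. No cluster was assigned to any of these genes.

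As background, GAF has a BTB/POZ domain through which it forms multimers and a zinc finger that recognises GA-rich DNA of the kind GAGAG. It is known for keeping promoters free of nucleosomes, for its part at promoters with paused RNA polymerase II such as those of heat shock genes, and for binding at Polycomb response elements. Trl was named for mutant phenotypes like those of trithorax, which maintains the expression of homeotic genes. The factor is supplied to the egg by the mother and is also made by the embryo.

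The Trl cluster was the highest-scoring GAF cluster of the genome in every list, and it was also broad. It scored 5.51 in replicate 1 and 5.25 in replicate 2, and both values were the first in rank of their lists. The mean was 5.38 ± 0.19 (SD, n = 2), and the combined list gave 5.38. The score is the authors' own signed value for each region, and its scale is not stated in the sources used here, so scores are compared by rank or difference and never as a fold. The locus was itself chosen by these scores, so its rank is a description and was not tested.

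Replicate 1 placed the cluster from 14746832 to 14754641, replicate 2 from 14746879 to 14754538 and the combined list from 14746843 to 14754601. Its start thus differed by 47 bp between the replicates and its end by 103 bp. The median differences over 5006 clusters matched 1 to 1 in all 3 lists were 28.0 bp and 27.5 bp. The edges of the Trl cluster moved more than the typical edge, though by little next to its width. Replicate 1 gave a width of 7810 bp, replicate 2 one of 7660 bp and the combined list one of 7759 bp, or 7735 ± 106 bp over the replicates (SD, n = 2). All-cluster medians were 2221, 2231 and 2201 bp in the same order of lists. By width the Trl cluster ranked 65th, 69th and 80th over the whole lists, and 9th, 11th and 14th on 3L alone.

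**Figure D1:**
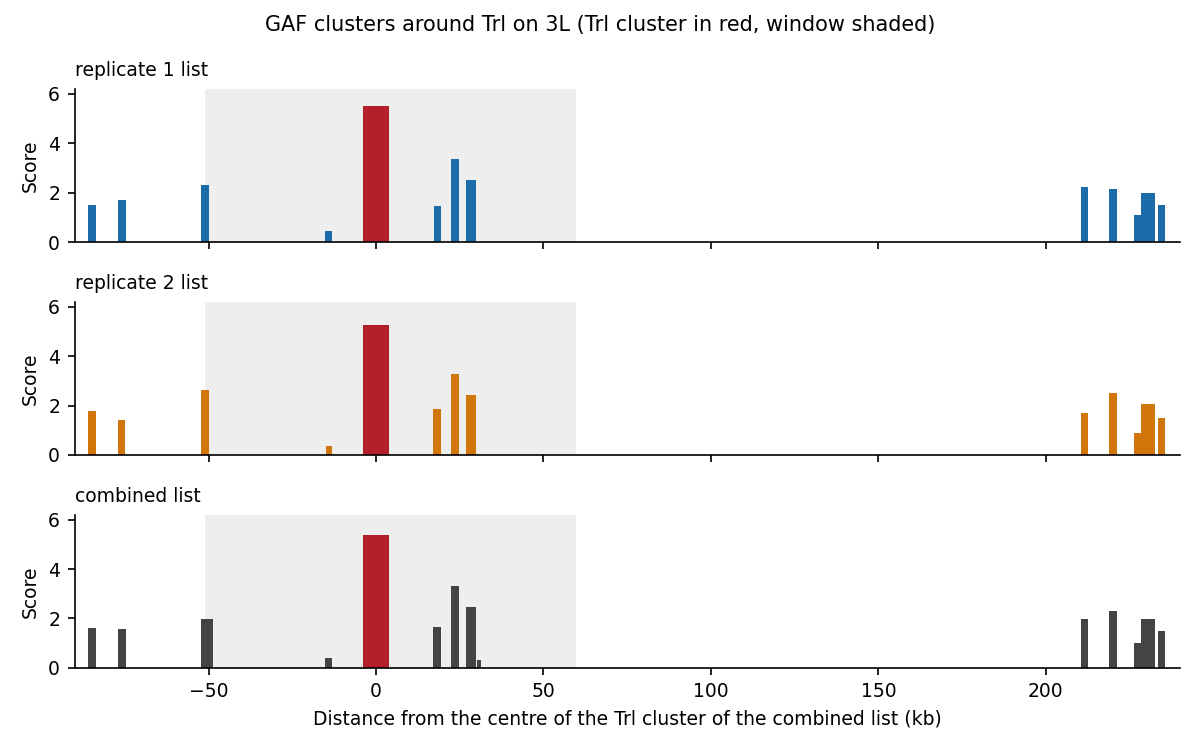
GAF clusters around Trl in the 3 lists. The horizontal axis is the distance in kb from the centre of the Trl cluster of the combined list, each bar spans a cluster and its height is the deposited score; the Trl cluster is red and the window is shaded. The red bar stands between 5.25 and 5.51, the other bars of the window reach at most 3.35, and the stretch of 179 kb after the last of them is empty.

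The lead of the Trl cluster was of the same order as the spread between replicates. In replicate 1 it scored 0.168 above the second cluster, which lay on 3R from 8292323 to 8295262 and scored 5.35. In replicate 2 the second was another cluster, on X from 16109633 to 16112806, with a score of 5.12, and the lead was 0.123. In the combined list the second was again the 3R cluster, at 5.22, with a lead of 0.151. The Trl cluster was thus first in each list, while the places behind it changed hands between the replicates.

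For a single cluster the spread of the score between replicates was 0.200 over all 5006 matched clusters (within-cluster SD, n = 2) and 0.110 over the 50 with the highest combined scores. At Trl, replicate 1 exceeded replicate 2 by 0.269. A difference at least as large in size was seen at 4 of those 50 clusters, Trl included, and at 1423 of all 5006. Among the 50, replicate 1 was the higher in 60.0%, against 41.9% of all matched clusters. The Trl cluster therefore moved more between replicates than most clusters of its score, in the direction that was commoner among them.

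**Figure D2:**
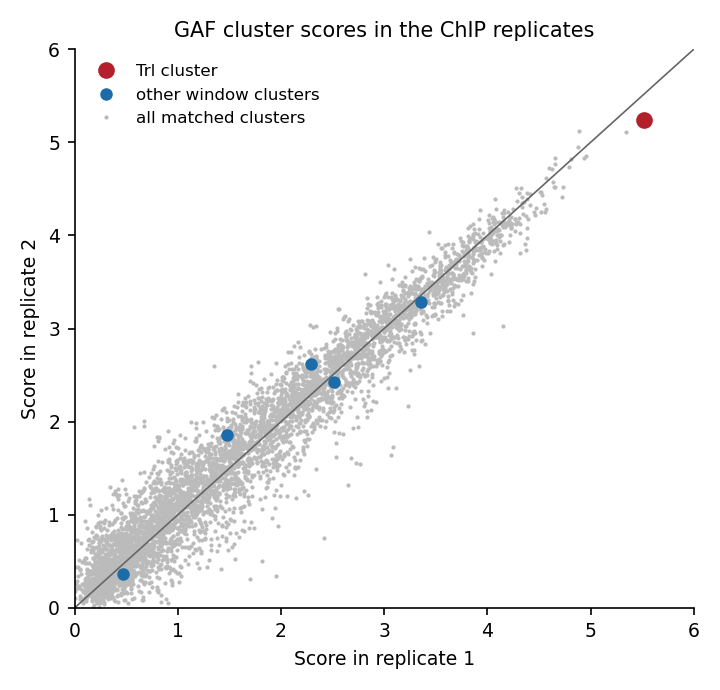
Score in replicate 1 (horizontal) against score in replicate 2 (vertical) for 5006 clusters matched 1 to 1 in all 3 lists, with the line of equal scores. The Trl cluster, in red, lies at the upper end just below the line, at 5.51 in replicate 1 and 5.25 in replicate 2; the other matched clusters of the window, in blue, lie on both sides of it.

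Since the Trl cluster scored highest, every wider cluster scored lower by construction, and only the size of the difference is described here. A high score with a great width was not particular to Trl. Among the 65 combined clusters in the highest 1% by score, widths reached 10428 bp. Of the 79 combined clusters that were wider, the highest score was 4.48 and the median was 3.11. In replicate 1 the 64 wider clusters reached at most 4.53, and in replicate 2 the 68 wider ones at most 4.43. Each of these maxima lies well below the score of the Trl cluster in the same list.

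Clusters of nearly the same width showed the same. Within 10% of its width there were 58 other combined clusters, with scores between 1.41 and 4.24 and a median of 2.88. Replicate 1 had 43 such clusters, scoring up to 4.44, and replicate 2 had 53, scoring up to 4.41. The Trl cluster ranked first in each of these sets, which follows from its first rank overall.

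The 5 clusters closest to it in width rank of the combined list were weaker and uneven. On X, a cluster from 1924903 to 1932877, 7975 bp wide, scored 1.67. On 3L, one from 13466568 to 13474450 scored 3.16, and on 2R one from 4533435 to 4541268 scored 3.98. On 3R, one from 7583155 to 7590896 scored 4.00. The last, on X from 2176002 to 2183705, scored 1.61 and was split into 2 clusters in each replicate. The score was thus 5.38 at Trl, against 1.61 to 4.00 at these clusters of nearly the same width.

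Conversely, all 5 clusters closest to it in score were narrower. The combined clusters ranked second to sixth were on 3R (8292248 to 8295279), X (16109639 to 16112803), 2L (14489028 to 14492012), 3R (25596315 to 25601641) and 3R (8298868 to 8304963). They were 3032, 3165, 2985, 5327 and 6096 bp wide in that order. The last of them overlapped a single cluster in each replicate that was 2895 and 2875 bp wide, so its width in the combined list was not that of either replicate. Among the 65 combined clusters in the highest 1% by score, the median width was 3679 bp and the Trl cluster ranked sixth in width. In both replicates it ranked 4th of 57.

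**Figure D3:**
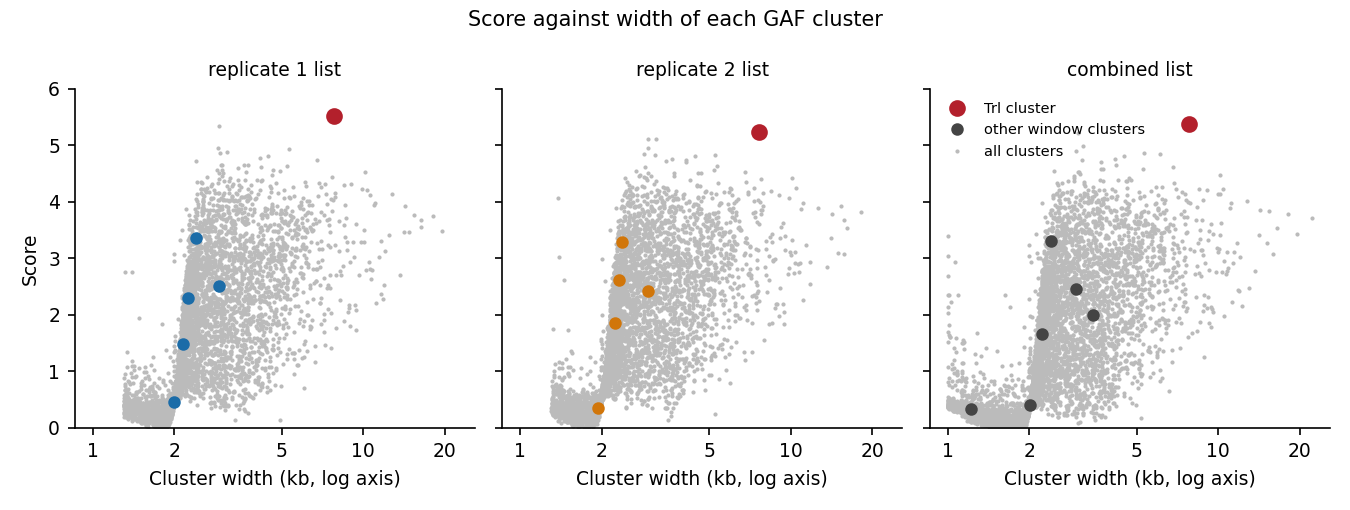
Score (vertical) against width in kb (horizontal, log axis) for every cluster of each list; the Trl cluster is red and the other clusters of the window are coloured. The red point stands alone at the top of each panel between 7.66 and 7.81 kb, and clusters to its right stay at or below 4.53.

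The other clusters of the window spanned much of the score range and none was near the Trl cluster in score. Toward higher coordinates, the nearest was from 14767840 to 14770068 in the combined list. Replicate 1 scored it 1.48, replicate 2 scored it 1.86 and the combined list 1.66. The replicates differed there by 0.378, more than at 84.6% of matched clusters and more than at any other matched cluster of the window.

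The next cluster, from 14773149 to 14775563, was the second strongest of the window, with scores of 3.35 and 3.29 in replicates 1 and 2 and a combined score of 3.32. It ranked 504th, 554th and 498th in the 3 lists, which puts 91.1%, 90.3% and 92.3% of their clusters below it. Its width was that of a common cluster, at 2410, 2379 and 2415 bp. After it came a cluster from 14777511 to 14780494, which scored 2.51 and 2.43 in replicates 1 and 2, with a combined score of 2.46, and was 2984 bp wide in the combined list. Both of these repeated closely, with differences of 0.0687 and 0.0815 between replicates.

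The last cluster of the window, from 14780760 to 14781980, was in the combined list alone. It scored 0.335, was 1221 bp wide, and began 265 bp after the end of the cluster before it, a gap shorter than all but 3.8% of those between neighbouring combined clusters on the large arms.

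Toward lower coordinates the window was sparser. A weak cluster from 14735587 to 14737597 scored 0.465 and 0.360 in replicates 1 and 2. Its combined score was 0.398, and 73.1% of combined clusters scored higher. The weakest cluster of the window in both replicates was thus the one directly beside the strongest.

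At the lower edge, a cluster from 14698564 to 14702005 in the combined list crossed the boundary of the window. It scored 2.29 and 2.62 in replicates 1 and 2. Its combined score of 1.99 was below both, as at 23.4% of matched clusters, but the size of the shortfall was uncommon. The combined score minus the replicate mean was -0.464, against a median of -0.0171 and a 5th percentile of -0.169 over matched clusters. The cluster was 2249 and 2312 bp wide in the replicates and 3442 bp wide in the combined list. There it reached 1135 bp past the higher end of both replicate clusters. A reach of at least 1000 bp past both replicates on either side occurred at 28 of the 5006 matched clusters (0.559%). The other 5 matched clusters of the window, Trl included, had combined scores between their replicate scores, as did 76.3% of all matched clusters.

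Just outside the window, the nearest cluster below it ran from 14673752 to 14675909 and scored 1.72, 1.43 and 1.59 in replicate 1, replicate 2 and the combined list. The nearest above it ran from 14961174 to 14963458 and scored 2.22, 1.69 and 1.97. No region called depleted lay in the window in any list. The nearest in the combined list ended 209 kb below the Trl cluster.

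**Figure D4:**
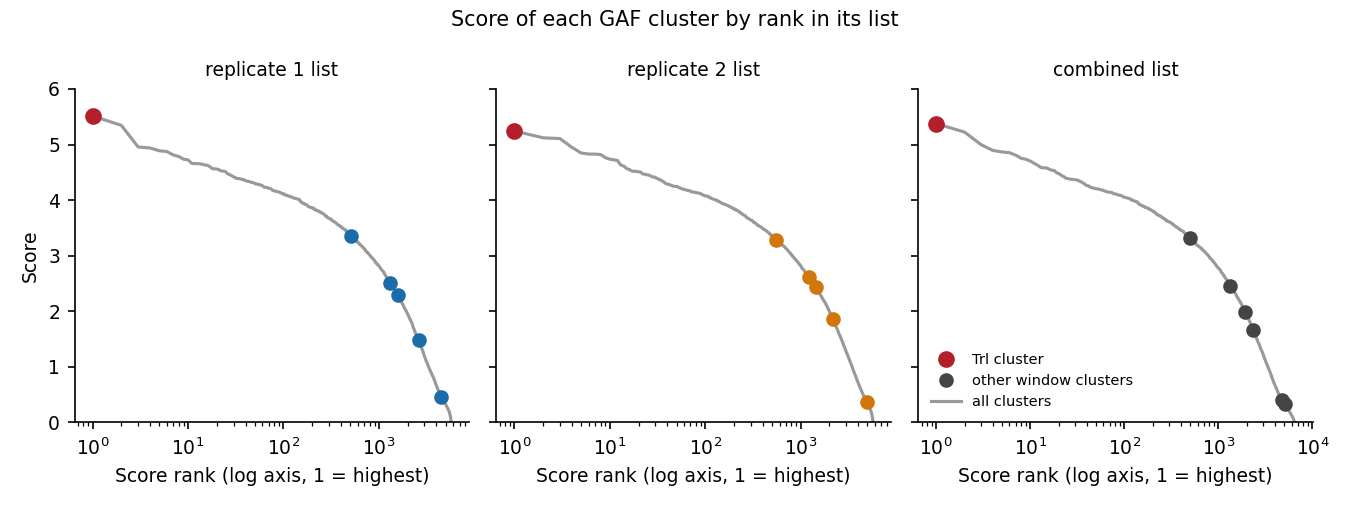
Score (vertical) by rank (horizontal, log axis, 1 = highest) in each list; the grey line is all clusters, the red point is the Trl cluster and the coloured points are the other clusters of the window. The Trl cluster is at rank 1 in each panel and the next member follows at rank 504, 554 and 498.

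Whether a cluster recurred in the replicates was read against all clusters. All 6 members of replicate 1 overlapped a cluster of replicate 2, against 92.3% of all replicate 1 clusters. All 6 members of replicate 2 overlapped one of replicate 1, against 91.7%. Of the 7 combined members, 6 were overlapped by a cluster of both replicates, against 79.5% of all combined clusters, and the 1 left over was the narrow cluster at 14780760. With so few members these counts are near what the whole lists give.

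The Trl cluster scored well above its neighbours. As it scored highest in each list, both neighbours were lower by construction, and only the size of the difference is described here. That size is taken from the same score as the first rank, so it is not a separate property of the locus. The clusters on either side scored 0.465 and 1.48 in replicate 1, so it exceeded the higher of them by 4.03, which was the largest such step of 5670 clusters with a neighbour on both sides, just ahead of 4.01 at another cluster. In replicate 2 the neighbours scored 0.360 and 1.86, and the step of 3.39 ranked 24th of 5685. In the combined list the step was 3.72 and ranked 21st of 6449. The median step was -0.636, -0.645 and -0.629, since a typical cluster has a stronger neighbour. The step was large in all 3 lists, but it was the largest in replicate 1 alone.

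The distances to those neighbours were ordinary. Below the Trl cluster, 9245 bp were free of combined clusters, and above it 13238 bp, against a median gap of 8388 bp between neighbouring combined clusters on the 5 large arms. The values in the replicates were 9262 and 13244 bp in replicate 1 and 9300 and 13295 bp in replicate 2, with medians of 9638 and 9546 bp. The gap on the upper side was longer than 63.4% of combined gaps.

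Beyond the last cluster of the window, in contrast, 179 kb of 3L held no combined cluster, from 14781980 to 14961174. This was the 6th longest of 6208 gaps on the large arms. The same stretch was empty in both replicates, where the gap was 181 kb and ranked 11th of 5518 in replicate 1 and 13th of 5551 in replicate 2. How much of it could be aligned uniquely is not recorded in the files.

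Other clusters of the highest 1% by score numbered 9 on 3L in the combined list. The nearest combined cluster of the highest 1% lay 478 kb below the Trl cluster, from 14264262 to 14268842, with a score of 4.25. On the upper side the nearest lay 2801 kb away, from 17555590 to 17558239, with a score of 4.34. In replicate 1 the cluster on the lower side did not reach the highest 1%, and the nearest that did lay 1524 kb away, so the lower distance depends on where that limit falls.

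The window as a whole was somewhat fuller than the median window. Set beside all 1077 windows of 110 kb tiled in step with it over the 5 large arms, its 7 combined clusters compared with a median of 6 and a maximum of 18, and 633 windows held fewer. Combined clusters covered 18.7% of it, against a median of 13.0% and a maximum of 55.3%, which ranked 286th. In the replicates 16.5% and 16.4% were covered, at ranks 307 and 323.

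The Trl cluster alone made up 37.6% of the covered length in the combined list, and 43.0% and 42.5% in the replicates. The other clusters covered 11.7% of the window in the combined list and 9.40% and 9.43% in the replicates. The medians for whole windows were 13.0%, 11.6% and 11.8%. Without the Trl cluster the counts were 6 combined clusters and 5 in each replicate, which equals the median whole window. The other windows kept their own strongest clusters in these medians, so the values are not compared like for like. Taking the strongest cluster out of every window was not done. By its highest score the window ranked first in each list by construction, while the median window had a highest score of 2.99, 2.98 and 2.97 in replicate 1, replicate 2 and the combined list.

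**Figure D5:**
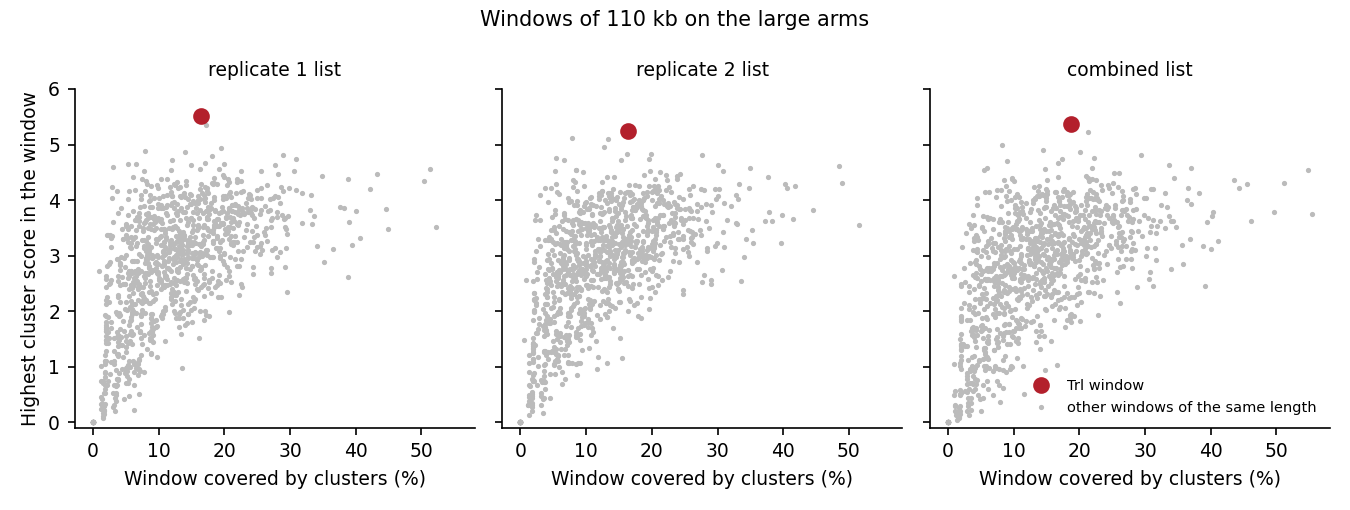
Highest cluster score (vertical) against the percentage of the window covered by clusters (horizontal) for 1077 windows of 110 kb on the 5 large arms in each list; windows without a cluster are drawn at 0. The Trl window, in red, is highest on the vertical axis and lies at 16.5%, 16.4% and 18.7% on the horizontal axis, well inside the spread of the other windows.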

How the data were processed

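GAF ChIP-seq was deposited as 3 region lists, 1 for each of 2 ChIP replicates and 1 combined list. Coordinates follow FlyBase release 5, per the file headers. Reads were aligned with Bowtie 0.12.7, per the submitters' processing notes. The region caller, its thresholds and the way the replicates were combined were not stated in the labels or headers. The deposited score is the authors' signed value per region, of unstated scale, and no read counts are given, so depth is unknown and precision rests on the 2 replicates. Per the labels, the input numbered 1 served replicate 2 and the input numbered 2 served replicate 1. The inputs were not analysed here.

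Clusters were regions with a score above 0. Overlap meant at least 1 shared bp. Rank 1 is the highest or widest, and gaps and windows were taken on the 5 large arms (2L, 2R, 3L, 3R and X). The text names every cluster of the window, the nearest outside it on each side, and the 5 combined clusters closest to the Trl cluster in score rank and in width rank. The second cluster of each list, the highest 1% by score and the spread by score level were added later. No test was made, since the locus, the lists and the measures were chosen with earlier results of these data known. The planned search of promoter and protein sequence could not be made, because no release 5 genome, annotation or sequence was at hand. Routines were tested on simulated intervals. Tools were Python 3.11.15, numpy 2.4.6 and matplotlib 3.10.9. Alternatives were a reciprocal overlap of 50%, a score at or above the list's median, single lists, other sets of clusters for ranking, other window rules and a Trl interval moved by 5 kb.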

Additional observations from a re-analysis of the deposited data

How the results depend on the processing

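Of 38 alternative values for 10 results, 34 stayed within 1 SD between replicates or, for counts, ranks and gaps, within 1.5 times. Several of the 34 could not have moved, so the count is no measure of stability. With 2 replicates, each lies less than 1 SD from their mean, which fixed the outcome for score and width. Moving the interval by 5 kb stayed inside the range in which the same cluster is picked. Ranking a first-ranked cluster among clusters of like width also had a fixed outcome. The score rank of the Trl cluster was 1 under all 5 of its alternatives. Where a part of the combined list was ranked, this followed from its first rank in the whole. The remaining alternatives were the replicate lists already described. The score of the Trl cluster was 5.25 or 5.51 and its width 7660 or 7810 bp with 1 replicate left out. The 4 that moved were the width rank, 14 on 3L alone against 80 over all sequences, and the covered share of the window, 18.7% in the combined list but 16.4 to 16.5% with 1 replicate left out (each value is then the list of the other replicate) and 15.8% for clusters at or above the median score. The SD of that share over the replicates is 0.0733, so small shifts count as moved; the combined list differs by its wider cluster at the lower edge and its extra cluster at 14780760. A window widened to 330 kb held 14 combined clusters, or 4.67 per 110 kb, against 7 in the window itself. This value lies at the limit of 1.5 times and was counted among the 34. The interval moved by 5 kb, the rank among clusters of like width in each replicate and the gaps in each replicate were chosen after seeing the data. No paired analysis was possible because the inputs were not analysed here and no result comes from a test. Depth is unknown, and the Trl interval is approximate.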
